A study of Mus musculus with 2 samples.

Results

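The Rab family of small GTPases was described in RNA sequencing libraries labelled as mouse adipose tissue, of wild type (WT) and Trappc9 knockout (KO) mice. Members were the protein-coding genes whose symbol is Rab followed by a number and at most a letter and a digit, so that effectors and regulators named after Rabs stayed out. This rule found 59 genes among the 54532 of the deposited table and did not use their levels. The mice were aged 3 to 4 weeks, and the series' design text names 3 of each genotype. Each genotype was represented by 1 library, and no label or text used here says whether animals were pooled for it, or names the knockout allele, the strain or the sex. The titles speak of stem cells from adipose tissue, the extraction label of frozen abdominal fat pads, and the design text of collagenase-digested pads, so the preparation that was sequenced is uncertain.

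Rab proteins are molecular switches of membrane traffic. Bound to GTP they sit on one kind of membrane and recruit motors, tethers and fusion factors, and bound to GDP they are extracted into the cytosol. Each Rab marks its own compartment: the route from endoplasmic reticulum to Golgi, early or late endosomes, recycling endosomes, or secretory granules. TRAPP complexes, of which the Trappc9 protein is a subunit, are exchange factors that load Rabs with GTP, Rab1 and Rab11 among them.

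Levels are deposited FPKM values (fragments per kilobase of gene, scaled to a library size). Paired values give the library labelled WT first and then the library labelled KO. Differences are log2((KO + 1)/(WT + 1)), where the added 1 FPKM shrinks the differences of weakly expressed genes. Multiplying FPKM by the gene length in the table gave back whole fragments, 13705193 and 14783728 in all. From these, each KO over WT ratio of FPKM received an exact 95% Clopper-Pearson interval on the KO share of the fragments. A gene is called higher or lower beyond counting error where that interval excluded a ratio of 1. The interval covers counting error only, there is no replicate check, and such a call compares the libraries and not the genotypes. As each library can hold several cell types, fewer cells of a type and less RNA per cell cannot be told apart.

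The targeted gene, Trappc9, was at 9.94 and 12.6 FPKM, from 1117 and 1432 fragments, a ratio of 1.27 (interval 1.17 to 1.37). Its level over the whole gene was thus not lower in the library labelled KO and does not check the label. Directions below therefore compare libraries by their labels, and higher or lower always refers to the library labelled KO.

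Nearly all Rab proteins share a glutamine in the second switch loop that helps to hydrolyse GTP, and end in cysteines that carry the lipid anchors for the membrane. Both features were read from the coding sequence of the principal GENCODE M21 transcript of all 59 members. The codon after the conserved stretch of tryptophan, aspartate, threonine, alanine and glycine codons was a glutamine codon, CAG or CAA, in 30 and 19 members. It was another codon in 3 members, each of which has that loop printed below beside Rab11a, the closest relative of Rab25. The stretch itself was not found in 7 members. Capitals mark the codon at the glutamine position.
Rab11a: tgggacacagcagggCAGgag
Rab25: tgggacacggccggcCTGgag
Rab20: tgggacaccgcagggCGGgag
Rab24: tgggacacagcaggtTCCgag

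At the end of the coding sequence, 20 members had 2 cysteine codons separated by another codon, 15 ended on 2 adjacent ones, and 15 had an adjacent pair followed by other codons. A single cysteine codon among the last 5 was found in 9 members. The ends are shown for members with the highest levels or the largest differences below, each with its stop codon and with cysteine codons in capitals.
Rab2a: caggcagggggaggcTGCTGTtga
Rab7: tccgcagaaagcTGCagtTGTtga
Rab4a: agtgcacaggagTGTggcTGCtag
Rab26: ggggtctccTGCTGTcgactctga
Rab38: TGCtctggcTGTgccaaatcctag
Rab13: aagaacaagTGCttgttaggctga
Rab38 has a further cysteine codon outside the last 5 codons, also in capitals. The endings of Rab4a and of Rab26 each occurred among both higher and lower members described below: Rab15, which was lower, ends like Rab4a, and Rab5b, which was higher, has an adjacent pair before other codons like Rab26.

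Of the 59 Rabs, 50 had a mean of at least 1 FPKM, 37 at least 5 FPKM and 26 at least 10 FPKM. Their summed FPKM was 923.5 and 957.1, and they took 0.300% and 0.291% of all fragments. The family was concentrated in a few ubiquitous members: the first 5, Rab2a, Rab1b, Rab7, Rab5c and Rab1a, held 39.7% and 41.3% of the summed Rab FPKM. Of the 50 members past the filter, 28 stood above the median level of all protein-coding genes past it (7.33 FPKM). The weakest member past the filter was Rab4b (1.15 and 0.923 FPKM) and the strongest one below it Rab27b (1.07 and 0.916 FPKM). The other 8 members below it, Rab2b, Rab39b, Rab3b, Rab33a, Rab39, Rab3c, Rab37 and Rab9b, ranged from 0.0351 to 0.899 FPKM, and for none of these 9 did the interval exclude a ratio of 1.

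**Figure D1:**
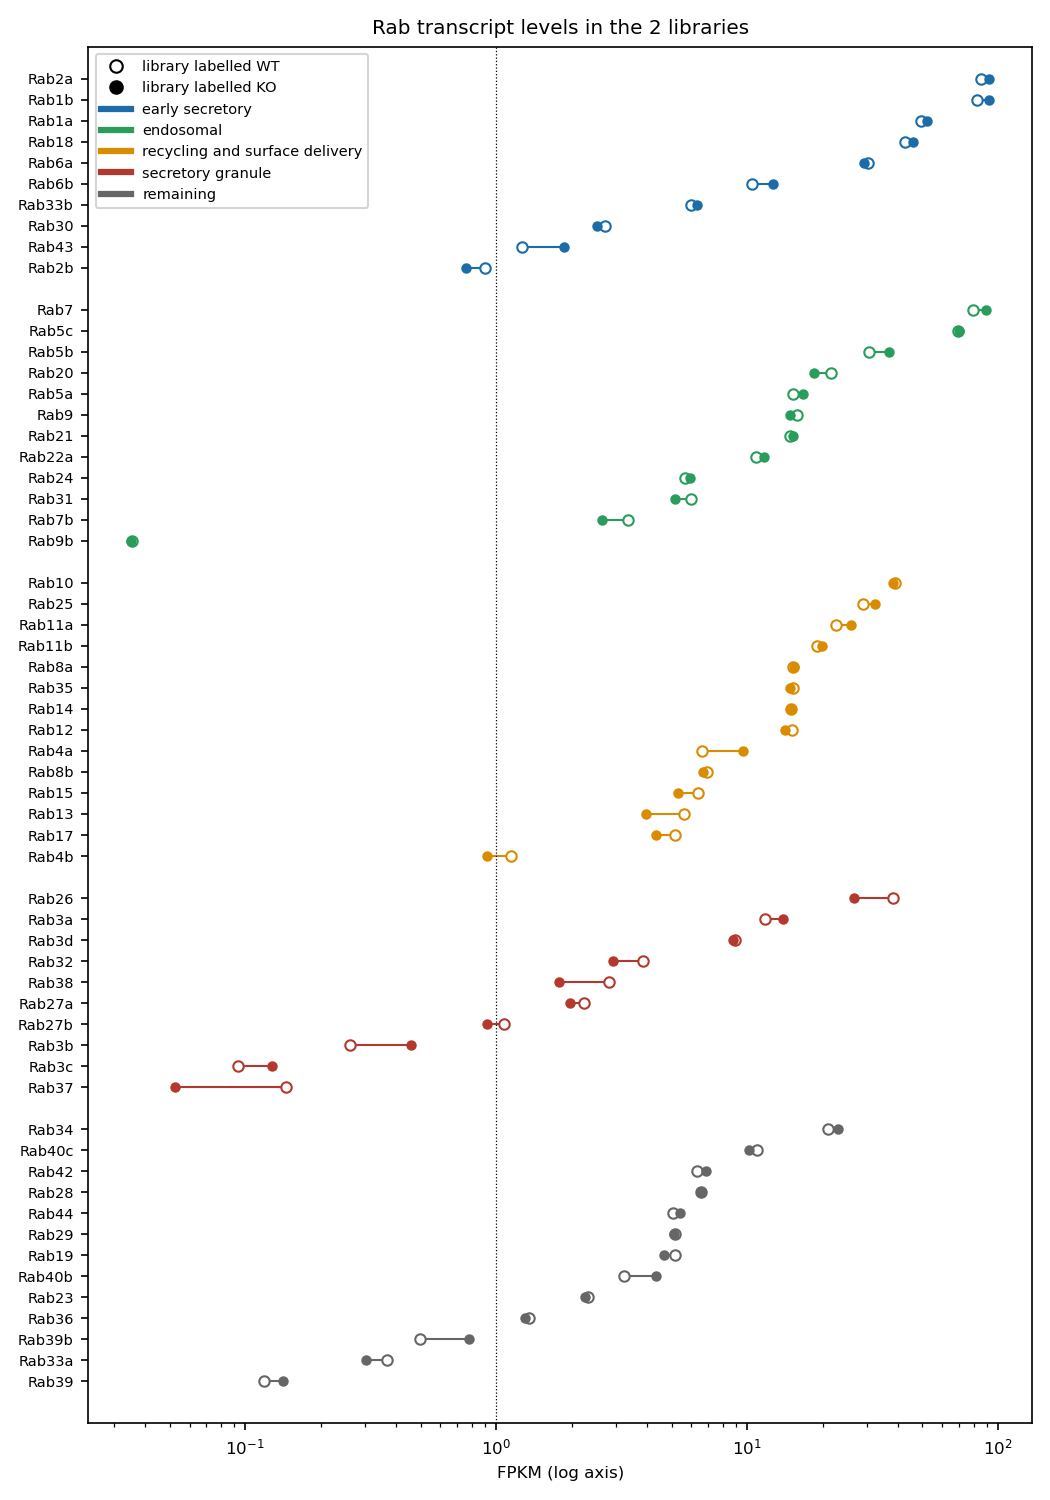
FPKM of all 59 Rab genes (log axis) in the library labelled WT (open circles) and the library labelled KO (filled circles), by compartment class, with a dotted line at 1 FPKM. Levels span from 0.0351 FPKM (Rab9b) to 92.1 FPKM (Rab2a), and the open and filled circles of most genes lie close together.

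Differences in the family were about as small as those of most genes. On the scale with 1 FPKM added and with the deposited scaling, no member past the filter reached a 1.5-fold difference in either direction, against 2.79% of all 13084 protein-coding genes past the filter that were at least 1.5-fold higher and 2.11% that were at least 1.5-fold lower. Likewise none reached 2-fold, against 0.948% and 0.29% of all genes. Among 50 genes such shares amount to few or none, so these counts lie near the background. The zero count at 1.5-fold rests on the added 1 FPKM and the deposited scaling. By its plain FPKM ratio of 0.629 Rab38 passed 1.5-fold, and 3 members were at least 1.5-fold lower after rescaling to TPM. The median log2 ratio over the 50 members was 0.0030, beside 0.02 over all protein-coding genes past the filter. Their range was −0.50 to 0.48, and 46 of the 50 lay inside the middle 90% of all genes (−0.41 to 0.44), near the share of all genes.

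Beyond counting error, 13 of 50 Rabs were higher, or 26%, where the background over all protein-coding genes was 24.6%. In the other direction 6 of 50 were lower, or 12%, against a background of 17.6%. Neither share stands far from its background. Among the 37 members at 5 FPKM or more, 11 were higher, where the background at that level was 30.3%, and 3 were lower (background 16.4%). The split depends on how the libraries are scaled. The deposited FPKM of all protein-coding genes summed to 288607 and 327708, so that rescaling to equal sums, as TPM does, lowers every ratio. With library sizes from the recovered totals it was 4 higher and 13 lower (background 14.5% and 30.3%), after rescaling to TPM 1 and 27 (7.88% and 48.4%), and without the 100 most abundant genes 4 and 14 (13.6% and 31.9%). These scalings moved the median log2 ratio of all genes from 0.02 to −0.06, −0.17 and −0.08. A gene's ratio relative to the median ratio of all genes is the same under every scaling. By that measure, 9 Rabs were higher and 8 lower beyond counting error (background 21.3% and 20.6%).

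The 6 lower members were Rab26, Rab38, Rab13, Rab7b, Rab15 and Rab20, and all 6 were lower under each of the 4 scalings. Of the 13 higher members only Rab4a was higher under all 4. Rab5b, Rab6b and Rab43 were higher under all but TPM, and the other 9 only with the deposited scaling. Of these 9, Rab2a was lower beyond counting error after rescaling to TPM. Against the median ratio of all genes, Rab4a, Rab43, Rab6b, Rab5b, Rab3a, Rab11a, Rab7, Rab1b and Rab2a were higher, and Rab31 and Rab32 joined the 6 lower members. Calls below are with the deposited scaling unless another is named.

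**Figure D2:**
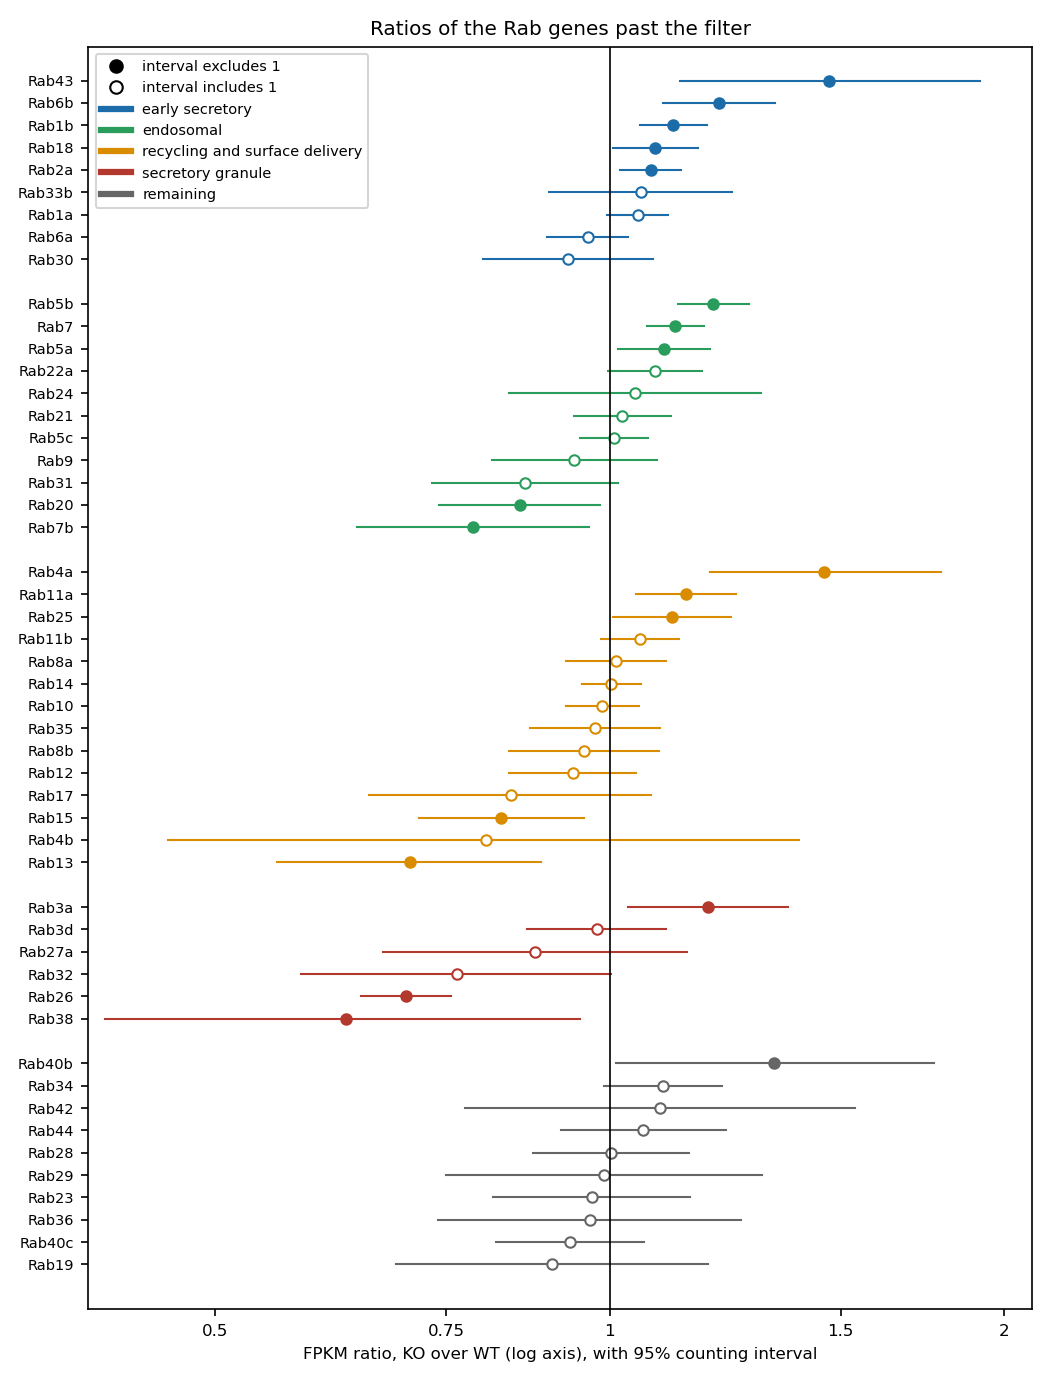
KO over WT ratio of FPKM (log axis) for the 50 Rabs past the filter, with 95% counting intervals, by class. Filled circles have an interval that excludes 1, for 13 higher and 6 lower members with the deposited scaling, of which 1 (Rab4a) and all 6 keep their call under every scaling tried.

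Among the early secretory Rabs, which serve the endoplasmic reticulum and the Golgi, the abundant members stood a little higher in the library labelled KO with the deposited scaling. Their median log2 ratio was 0.10 over the 9 of 10 past the filter, and 5 were higher and 0 lower beyond counting error (background 24.6% and 17.6%). After rescaling to TPM the median was −0.10, with 0 higher and 4 of 9 lower, near the TPM background of 48.4%, and without the 100 most abundant genes it was −0.0010. Relative to the median of all genes it was 0.08 with the deposited scaling and 0.07 after rescaling to TPM. The class is well expressed, with a median level of 29.7 FPKM. For all protein-coding genes at 10 FPKM or more, the background with the deposited scaling was 35.6% higher and 16.2% lower. Their median log2 ratio was 0.05. Rab2a, which acts between Golgi and endoplasmic reticulum, was at 85.7 and 92.1 FPKM, a ratio of 1.07 (1.02 to 1.13).

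The Rab1 pair, which drives traffic from the endoplasmic reticulum to the Golgi and is a substrate of TRAPP, summed to 131.8 and 144.0 FPKM. Rab1b held 62.5% and 63.9% of that sum. Rab1b was at 82.3 and 92.0 FPKM, a ratio of 1.12 (1.05 to 1.19), and Rab1a at 49.5 and 52.0 FPKM, where the interval included 1 (0.996 to 1.11). Rab18, a Rab of the endoplasmic reticulum and of lipid droplets, was at 42.5 and 46.0 FPKM (ratio 1.08, 1.01 to 1.17). The ratios of these 4 best-expressed members of the class thus lay between 1.05 and 1.12.

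The Golgi Rabs differed more among themselves. Rab6a, of retrograde traffic through the Golgi, was at 30.3 and 29.1 FPKM (ratio 0.962, 0.896 to 1.03). Its paralogue Rab6b, best known from neurons, was at 10.5 and 12.7 FPKM (ratio 1.21, 1.10 to 1.34), so that its part of the Rab6 sum was 25.8% and 30.4%. The pair summed to 40.8 and 41.8 FPKM, close to level. Rab43, another Golgi Rab, was low, at 1.26 and 1.86 FPKM from 99 and 147 fragments (ratio 1.47, 1.13 to 1.92). Its exons share 75.4% of their bases with Gm45140, a protein-coding gene model on the same strand listed at 0.0274 and 0.0950 FPKM, so the division of fragments between them is uncertain. Rab30 (2.71 and 2.52 FPKM) and Rab33b (5.99 and 6.32 FPKM) had intervals that included 1.

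The endosomal Rabs were mixed. Over the 11 of 12 past the filter the median log2 ratio was 0.03, and below 0 under the other scalings (−0.17 after rescaling to TPM). With the deposited scaling 3 were higher and 2 lower beyond counting error (background 24.6% and 17.6%). After rescaling to TPM 0 were higher and 6 lower (background 7.88% and 48.4%). Rab7, which directs late endosomes to fuse with lysosomes, was at 79.8 and 89.5 FPKM, a ratio of 1.12 (1.07 to 1.18). The processed pseudogene Rab7-ps1, listed at 6.58 and 8.54 FPKM, resembles it and can share reads with it.

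Rab5, the Rab of early endosomes, is encoded by 3 paralogues, which summed to 115.0 and 123.2 FPKM. Rab5c, the most abundant, was level at 69.1 and 69.6 FPKM (ratio 1.01, 0.949 to 1.07). Rab5b was at 30.7 and 36.9 FPKM, a ratio of 1.20 (1.13 to 1.28), and held 26.7% and 29.9% of the sum. Rab5a was at 15.2 and 16.7 FPKM (ratio 1.10, 1.01 to 1.19). The intervals of Rab5b and Rab5c did not overlap, so the ratios of these 2 paralogues differed by more than counting error.

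The lower endosomal members were Rab20 and Rab7b. Rab20, found on endosomes and phagosomes and named above for the arginine codon in its switch loop, was at 21.7 and 18.5 FPKM from 427 and 368 fragments. Its ratio was 0.853 (0.740 to 0.983). A noncoding gene on the opposite strand, E230013L22Rik, covers 25.6% of its exon bases and was at 3.04 and 2.90 FPKM. Rab7b, which acts between endosomes and the trans-Golgi network, was at 3.34 and 2.63 FPKM (ratio 0.787, 0.641 to 0.964). This ran against its paralogue Rab7, with intervals that did not overlap. Rab31, of traffic between the trans-Golgi network and endosomes, was at 5.98 and 5.15 FPKM (ratio 0.861, 0.732 to 1.01).

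Further endosomal Rabs were level within counting error with the deposited scaling. Rab9, which returns mannose 6-phosphate receptors to the Golgi, was at 15.7 and 14.8 FPKM. Rab21, a Rab of integrin traffic, was at 14.9 and 15.2 FPKM, and Rab22a at 10.8 and 11.7 FPKM. Rab24, linked to autophagy, was at 5.64 and 5.90 FPKM. Of its exon bases 62.4% lie opposite Prelid1, which was at 43.6 and 50.1 FPKM, and since it is not given whether the counting used strand, the level of Rab24 may hold reads of Prelid1.

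Recycling Rabs, taken with those that deliver vesicles to the plasma membrane, were mixed as well, with Rab4a higher and Rab13 lower. All 14 passed the filter, with a median log2 ratio of −0.03 (−0.23 after rescaling to TPM). Beyond counting error 3 were higher and 2 lower (background 24.6% and 17.6%). After rescaling to TPM 1 was higher and 10 were lower (background 7.88% and 48.4%). Rab4a, which runs the fast route from early endosomes back to the surface, was at 6.63 and 9.67 FPKM from 165 and 243 fragments. Its ratio of 1.46 (1.19 to 1.79) gave the largest log2 ratio of the family, 0.48. Rab4b was at 1.15 and 0.923 FPKM from 32 and 26 fragments, with a wide interval (0.461 to 1.39). The level of Rab4b is uncertain, as 65.0% of its exon bases are also in the gene model Gm21983 on the same strand, listed at 0.

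Rab11a, Rab11b and Rab25 form the slow recycling group, and Rab11 is a Rab linked to the TRAPP complex that contains Trappc9. Rab25, which is restricted to epithelia, was the most abundant of the group at 28.9 and 32.3 FPKM, or 41.0% and 41.3% of its sum. Rab11a was at 22.7 and 25.9 FPKM (ratio 1.14, 1.05 to 1.25), and Rab11b at 18.9 and 20.0 FPKM (ratio 1.05, 0.985 to 1.13). A pseudogene of Rab11b, Rab11b-ps2, was listed at 17.9 and 17.9 FPKM and can share reads with it. The shares of the 3 genes within the group thus differed little between the libraries.

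Rab13 and Rab15 were lower. Rab13, which carries membrane proteins to tight junctions, was at 5.62 and 3.95 FPKM from 183 and 130 fragments, a ratio of 0.703 (0.557 to 0.886). Rab15, of recycling endosomes and best known from neurons, was at 6.40 and 5.29 FPKM (ratio 0.827, 0.715 to 0.955). Rab17, like Rab25 an epithelial Rab, was at 5.14 and 4.32 FPKM (ratio 0.840, 0.655 to 1.08). Of these epithelial Rabs only Rab25 had an interval that excluded 1 (1.01 to 1.24), and the intervals of Rab17 and Rab25 overlapped.

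The exocytic Rabs of this class were level with the deposited scaling. Rab10, which brings the glucose transporter GLUT4 to the surface of adipocytes, was at 38.7 and 38.2 FPKM (ratio 0.987, 0.926 to 1.05). Rab8a, of exocytosis and ciliary traffic, was at 15.3 and 15.4 FPKM, and its paralogue Rab8b at 6.95 and 6.65 FPKM. Rab14 was at 15.0 and 15.0 FPKM on 2878 and 2914 fragments (ratio 1.00, 0.952 to 1.06). Rab35 (15.3 and 14.9 FPKM) and Rab12 (15.2 and 14.2 FPKM) also had intervals that included 1.

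The secretory-granule Rabs, with those of lysosome-related organelles, were the class with the lowest median. It was −0.21 over the 6 of 10 past the filter, −0.44 after rescaling to TPM, and −0.24 and −0.27 relative to the median of all genes under these scalings. With a filter at 5 FPKM the deposited median was −0.0298 (−0.07 relative to the median of all genes), and without Rab26 it was −0.13. With 6 genes it rests on few values: 1 was higher and 2 were lower beyond counting error (background 24.6% and 17.6%). After rescaling to TPM 0 were higher and 5 lower (background 7.88% and 48.4%), and under the other scalings 0 and 3. Rab26, which acts in granule maturation and is best known from exocrine cells, was the most abundant member of the class. It is on chromosome 17 (24527241 to 24534210, minus strand, mm10) and was the ninth most abundant Rab. Its level was 38.0 FPKM from 1535 fragments and 26.6 FPKM from 1084 fragments, a ratio of 0.699 (0.646 to 0.756) and a log2 ratio of −0.50, the lowest of the family. Of its exon bases 9.36% are shared with Traf7 on the same strand, which was at 17.3 and 15.8 FPKM.

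Rab38 and Rab32, which build melanosomes and related organelles, were low. Rab38 was at 2.82 and 1.77 FPKM from 63 and 40 fragments (ratio 0.629, 0.412 to 0.949). Rab32 was at 3.83 and 2.93 FPKM (ratio 0.764, 0.581 to 1.00, the upper bound just above 1). Together they summed to 6.65 and 4.70 FPKM. Rab27a, which docks granules and melanosomes at the membrane, was at 2.24 and 1.96 FPKM (ratio 0.878, 0.672 to 1.14), and its paralogue Rab27b at 1.07 and 0.916 FPKM.

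The Rab3 group of regulated exocytosis did not follow Rab26. Rab3a, the synaptic vesicle Rab, was at 11.7 and 13.9 FPKM (ratio 1.19, 1.03 to 1.37). Rab3d, its exocrine and adipocyte counterpart, was at 8.98 and 8.78 FPKM (ratio 0.977, 0.865 to 1.10). Rab3b (0.260 and 0.456 FPKM) and Rab3c (0.0937 and 0.128 FPKM) rested on at most 23 fragments in either library, too few to show a difference. The group summed to 21.1 and 23.3 FPKM.

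Of the 13 remaining Rabs 10 passed the filter, with a median log2 ratio of −0.0047 (−0.20 after rescaling to TPM). Beyond counting error 1 was higher and 0 lower (background 24.6% and 17.6%). After rescaling to TPM 0 were higher and 2 lower (background 7.88% and 48.4%). The higher member was Rab40b, an adaptor of a ubiquitin ligase, at 3.23 and 4.32 FPKM from 92 and 124 fragments (ratio 1.33, 1.01 to 1.77). Its paralogue Rab40c was at 11.0 and 10.2 FPKM (ratio 0.932, 0.818 to 1.06). Rab34, of Golgi and cilium, was the most abundant at 20.9 and 23.0 FPKM (ratio 1.10, 0.991 to 1.22). Rab42 was at 6.31 and 6.89 FPKM, Rab28, a ciliary Rab, at 6.56 and 6.58 FPKM, and Rab23, which restrains Hedgehog signalling, at 2.33 and 2.25 FPKM. Rab44 (5.07 and 5.38 FPKM), Rab29 (5.15 and 5.10 FPKM), Rab19 (5.15 and 4.66 FPKM) and Rab36 (1.35 and 1.30 FPKM) had intervals that included 1.

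A class's share of the summed Rab FPKM does not depend on how the libraries were scaled. Early secretory Rabs held 33.7% and 35.0% of it, a difference of 1.30 percentage points (95% interval from counting error 0.579 to 2.02). Secretory-granule Rabs held 7.49% and 6.01%, a difference of −1.48 points (−1.84 to −1.12). The intervals of the endosomal (29.5% and 29.9%), recycling (21.9% and 21.6%) and remaining Rabs (7.37% and 7.41%) included 0. The endosomal result depends on the measure: by fragments, not per length, its shares were 28.5% and 29.5%, a difference of 0.967 points whose interval excluded 0 (0.353 to 1.58). The recycling difference by fragments was −0.58 points (−1.19 to 0.0298). Rab26 alone carried most of the granule difference: without it the class held 3.52% and 3.33%, a difference of −0.20 points (−0.47 to 0.07). Without Rab26 the early secretory difference was 0.854 points (0.113 to 1.59).

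**Figure D3:**
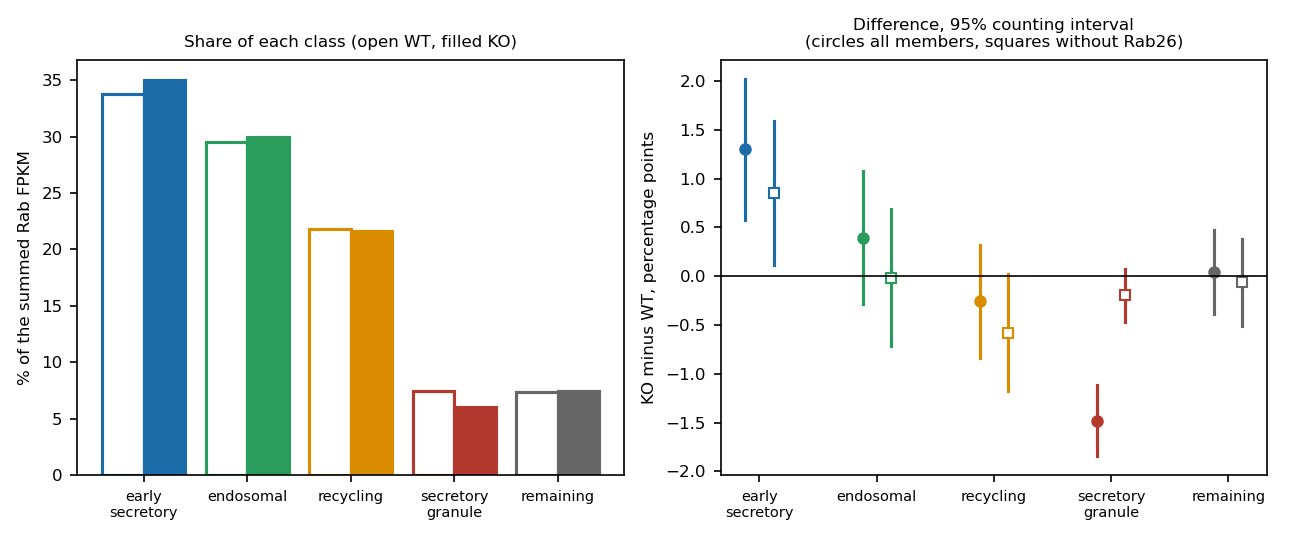
Left, share of each class in the summed FPKM of all Rabs (%), open bars for the library labelled WT and filled bars for the library labelled KO. Right, KO minus WT in percentage points with 95% intervals from counting error, circles for all members and squares without Rab26. The granule class lies at −1.48 points with Rab26 and −0.20 without it.

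The order of the Rabs by level was almost the same in both libraries. Across the 50 genes past the filter Spearman's rank correlation between the libraries was 0.988, a description across genes that share library and depth. Of the 26 at 10 FPKM or more, 10 were higher beyond counting error, where the background at that level was 35.6%, and 2 were lower (background 16.2%). Of the 24 below 10 FPKM, 3 were higher (background 17.4%) and 4 lower (background 18.5%). Medians of the log2 ratio were 0.07 and −0.04. All protein-coding genes in these ranges had medians of 0.05 and −0.0016, with 62.3% and 49.7% of genes above 0.

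Windows from 250 bases before to 50 bases after the start were found for 48 members in the RefSeq promoter table (GRCm38.p6), and the first window listed for a gene was used. There was no entry for Rab2a, Rab4a, Rab7b, Rab18, Rab26, Rab27b, Rab30, Rab36, Rab37, Rab38 and Rab44. On both strands, the GC box GGGCGG was in 34 of 48 windows (70.8%), against 63.7% of 10262 protein-coding genes past the filter and 35.9% of all 27025 genes. CCAAT was in 47.9% (38.5% and 37.9%), TATAAA in 8.33% (7.14% and 14.2%), CACGTG in 10.4% (10.0% and 7.24%) and TGACGTCA in 4.17% (3.15% and 1.88%). A window may hold several of these motifs, and CACGTG and TGACGTCA have ACGT in common. Of the 10 higher members with a window, 7 held CCAAT, 9 the GC box and 2 (Rab5a and Rab25) TGACGTCA. Of the 3 lower ones, Rab20, Rab13 and Rab15, none held CCAAT, 2 held the GC box and 1, Rab20, held CACGTG, which 1 higher member, Rab5a, held as well. The 250 bases before the start are printed for Rab20, the lower member that held CACGTG (the E-box), and for Rab25, one of the members that held TGACGTCA (the cyclic AMP response element), with that motif in capitals. They lie at chr8:11478641-11478890 and chr3:88548280-88548529, both on the minus strand. These starts are those of the promoter table. In the deposited table both genes start inside the printed stretch, at 11478710 (Rab20) and 88548300 (Rab25). By that start the CACGTG of Rab20 lies within the gene and not before it.
Rab20: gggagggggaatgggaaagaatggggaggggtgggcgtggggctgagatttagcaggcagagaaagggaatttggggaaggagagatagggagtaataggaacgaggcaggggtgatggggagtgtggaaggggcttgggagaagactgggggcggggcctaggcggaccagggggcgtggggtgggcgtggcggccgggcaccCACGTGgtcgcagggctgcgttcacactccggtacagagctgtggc
Rab25: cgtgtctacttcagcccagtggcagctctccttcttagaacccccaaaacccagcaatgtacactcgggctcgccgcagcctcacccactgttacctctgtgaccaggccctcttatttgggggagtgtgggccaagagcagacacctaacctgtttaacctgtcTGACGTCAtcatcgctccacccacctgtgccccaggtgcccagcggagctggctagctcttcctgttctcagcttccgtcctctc

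Genes that act on Rabs were measured from lists of the machinery. Their counts stand beside the same background of all protein-coding genes, 24.6% higher and 17.6% lower with the deposited scaling and 7.88% and 48.4% after rescaling to TPM. Of 14 TRAPP subunits 6, Trappc9 among them, were higher and 0 lower beyond counting error, with a median log2 ratio of 0.13 (−0.05, with 3 and 4, after rescaling to TPM). Trappc6a was at 18.9 and 25.3 FPKM and Trappc3 at 25.0 and 32.4 FPKM, both subunits of the core that exchanges nucleotide on Rab1. Of 8 genes of prenylation, escort and GDP dissociation inhibition, 3 were higher and 0 lower, with a median of 0.14 (−0.05, with 1 and 2, after rescaling to TPM). Rabac1, a receptor for prenylated Rabs in the Golgi, had the largest difference, at 110.8 and 152.9 FPKM (ratio 1.38, 1.31 to 1.46). Rabggtb, a subunit of the enzyme that prenylates Rabs, was at 16.2 and 18.9 FPKM, and Gdi2, which extracts Rabs from membranes, at 23.3 and 25.9 FPKM.

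Exchange factors outside TRAPP had a median of −0.0077 over 35 genes, with 6 higher and 4 lower. Hps1, part of the exchange factor of Rab32 and Rab38, was at 4.73 and 6.69 FPKM (ratio 1.41, 1.24 to 1.61), while both of those Rabs had ratios under 1. Hps4, the other subunit of that factor, was at 6.51 and 6.48 FPKM. Ccz1, of the Rab7 exchange factor, was at 9.01 and 10.7 FPKM, and its partner Mon1b at 6.62 and 5.65 FPKM. Among 33 GTPase-activating proteins, which switch Rabs off, 11 were higher and 6 lower (median 0.02), with Tbc1d8 at 46.2 and 60.4 FPKM, Tbc1d14 at 11.7 and 15.5 FPKM and Tbc1d25 at 4.25 and 2.95 FPKM. After rescaling to TPM these counts were 1 and 21 for exchange factors and 4 and 20 for activating proteins, and the median of the activating proteins was below 0 under each of the 3 other scalings.

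Rab effectors had a median of 0.07 over the 39 of 44 found that passed the filter, with 14 higher and 4 lower (−0.13, 6 and 18 after rescaling to TPM, and a median below 0 under each of the 3 other scalings). Rilpl1, which binds Rab8 and Rab10 at the cilium base, was at 16.8 and 26.0 FPKM (ratio 1.55, 1.39 to 1.72). Gorasp1, a stacking factor of the Golgi, was at 14.3 and 19.8 FPKM (ratio 1.39, 1.27 to 1.52). Myrip, the link from Rab27a to myosin, was at 0.625 and 1.46 FPKM from 49 and 116 fragments, a ratio of 2.34 (1.66 to 3.34). Mical1 was at 2.67 and 1.79 FPKM (ratio 0.670, 0.543 to 0.825). Myrip passed the filter only through the library in which it was high, and so did Sytl2 (1.25 and 0.842 FPKM), which is among the 4 lower. Both are in the counts above, so these 2 calls carry little weight.

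**Figure D4:**
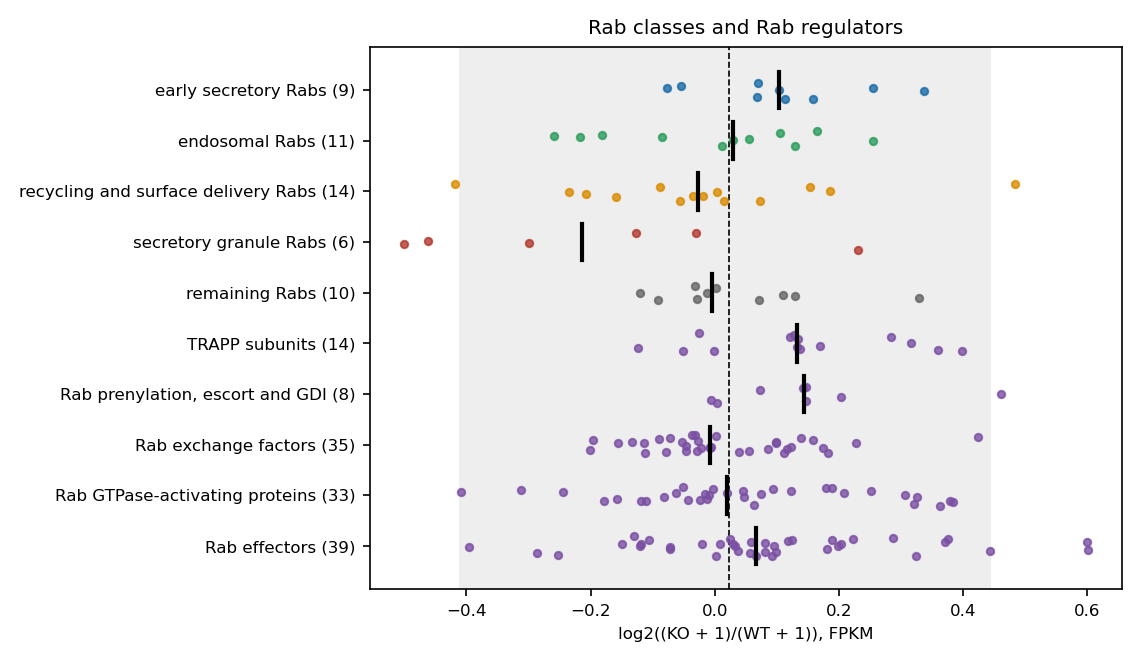
log2((KO + 1)/(WT + 1)) of each gene past the filter, for the 5 Rab classes and 5 lists of Rab regulators and effectors (number of genes in brackets). Black bars are medians, the dashed line is the median of all protein-coding genes (0.02) and the grey band their middle 90%, under the deposited scaling. The granule Rabs have the lowest median (−0.21), and the medians of TRAPP (0.13) and prenylation genes (0.14), positive here, are −0.05 after rescaling to TPM.

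A pair of other branches of small GTPases also had medians near that of all genes. Past the filter, 23 Arf and Arl genes had a median log2 ratio of 0.02, with 5 higher and 5 lower beyond counting error (background 24.6% and 17.6%). The 14 genes of the Ras branch past the filter had a median of 0.0060, with 2 and 3. None of these genes reached a 1.5-fold difference either, against 2.79% higher and 2.11% lower of all protein-coding genes. No difference between the branches was tested.

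Marker genes showed that the libraries were not of adipocytes alone. Sums here are over all markers of a list with the deposited scaling, and rescaling to TPM lowers every KO over WT ratio. Counts stand beside a background of 24.6% higher and 17.6% lower. Of 10 adipocyte markers 7 passed the filter, and the list summed to 75.3 and 70.0 FPKM. Of the 7, 1 was higher and 3 lower beyond counting error, with Fabp4 at 25.1 and 27.0 FPKM and Adipoq at 2.30 and 0.506 FPKM. All 10 general epithelial markers passed, summing to 1243 and 1321 FPKM, with 6 higher and 2 lower beyond counting error. All 13 epididymal principal cell markers passed as well, with 21719 and 28903 FPKM, 11 higher and 1 lower. Progenitor and fibroblast markers (10 of 10) summed to 1322 and 951 FPKM, with 1 higher and 8 lower. Most of that sum was Col1a1 (531 and 377 FPKM) and Col3a1 (481 and 312 FPKM). Proliferation genes (8 of 8) summed to 67.3 and 33.6 FPKM. Haploid germ cell markers (7 of 8) summed to 39.2 and 180.1 FPKM and clear cell markers (5 of 6) to 51.3 and 67.6 FPKM. Smooth muscle markers (5 of 5) summed to 642.9 and 640.1 FPKM, with 2 higher and 2 lower. Among cells rich in secretory granules, Prss1, Cpa1, Amy2a5, Ins1, Ins2 and Gcg of the pancreas were at 0 in both libraries, as was the neuronal gene Snap25, and the lists summed to 2.45 and 2.70 FPKM (pancreas) and 3.41 and 2.52 FPKM (neuron and Schwann cell). Mast cell markers (4 of 7) summed to 7.12 and 10.6 FPKM. Macrophage markers (7 of 7) were at 232.9 and 229.5 FPKM and endothelial ones (7 of 7) at 45.7 and 51.8 FPKM. The part of these shifts in the ratios of Rab26, Rab4a and the other Rabs was not tested.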

How the data were processed

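The authors deposited 1 table of FPKM values per gene, with gene length and position, for 1 library per genotype. Per the submitters' processing notes, the tools included HISAT2 2.0.5, and builds listed were hg38 and mm10. No counting program is named in the sources used here, nor whether it used strand. Fragments were recovered as FPKM times length over a step per library (whole within 0.01 for 100% of values above 0). The KO over WT ratio of the deposited denominators was 1.01, against 1.08 for the totals. Libraries were made with the TruSeq RNA kit, per the labels' protocols.

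Computed here (Python 3.11.15, SciPy 1.17.1): log2 ratios with a pseudocount of 1 FPKM, a filter at a mean of 1 FPKM, and Clopper-Pearson intervals. The latter were run on simulated Poisson counts, the model they assume, which checks the computation and not their fit to these libraries. Intervals of class shares use Poisson error of the fragments. The intervals cover counting error only. No label mentions molecular identifiers, so amplified copies of a fragment may be counted as separate fragments and the intervals may be too narrow. All 59 members were in GENCODE M21, 57 with the same coordinates. Named were the 3 most abundant members of each class, members beyond counting error with a log2 ratio of at least 0.2, paralogues, and up to 4 genes per list with the largest ratios. Any other gene was chosen after its values were seen. Members, classes, lists and motifs were chosen with earlier results of these data known. Alternatives covered pseudocount, filter, scaling, mean for median and length.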

Additional observations from a re-analysis of the deposited data

How the results depend on the processing

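No paired analysis was possible because each genotype has 1 library, and for the same reason none could be left out. After rescaling to TPM the median log2 ratios were −0.19 (all Rabs), −0.10 (early secretory), −0.17 (endosomal), −0.23 (recycling), −0.44 (granule) and −0.20 (remaining). After leaving out the 100 most abundant genes they were −0.10, −0.0010, −0.0727, −0.13, −0.36 and −0.11. Under these scalings, and with the recovered totals, the members higher beyond counting error numbered 1, 4 and 4 in that order, those lower 27, 14 and 13, and those at least 1.5-fold lower 3, 2 and 1. With a pseudocount of 0.1 FPKM 1 member was at least 1.5-fold lower. The granule median was −0.11 with a pseudocount of 5 FPKM and −0.0298 with a filter at 5 FPKM, where 3 members were lower. In alternatives chosen after seeing the data, 7 members were higher among the 33 whose exons share no base with another gene, and the granule share differed by −0.20 points without Rab26. After rescaling to TPM, 7 members called higher turned negative: Rab11a (−0.0094), Rab18 (−0.0857), Rab5a (−0.0641), Rab1b (−0.0412), Rab25 (−0.0436), Rab2a (−0.0979) and Rab7 (−0.0357), and Rab2a was at −0.0010 without the 100 most abundant genes. Each scaling multiplies all genes by 1 factor, so that the class medians relative to the median of all genes moved less (granule −0.22 to −0.29 over the 4 scalings). By fragments in place of FPKM the endosomal and recycling share differences were 0.967 and −0.58 points. Of the values for classes and counts under an alternative, 67 stayed within 1.5 times (counts), 0.1 (medians) or counting error (shares) of the reported value. The other 27 moved further. Depth limits weak members: Rab4b rested on 32 and 26 fragments and Rab38 on 63 and 40, and of the 9 below the filter all but Rab27b (162 and 140) on at most 53 in either library.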
